A study of Mus musculus with 23 samples.

Results

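The genes described here are 10 that store, import, export or sense iron in mouse cells, chosen by name: Fth1, Ftl1, Tfrc, Slc40a1, Slc11a2, Hmox1, Ireb2, Aco1, Ncoa4 and Steap3. All 10 had a row among the 55487 gene identifiers of the deposited count tables. The counts came from 23 RNA-seq libraries of hippocampal cultures from C57Bl/6 mice taken on postnatal day 1. They grew in microfluidic chambers: 200000 cells were seeded on the soma side and axons extended into the other. Every culture was given 5 µg per ml of MNPs, the magnetic particles through which the force was applied, whose composition is not given in the sources used here. The stretched cultures were in a magnetic field gradient of 50 T per m from day 1 to day 6 in vitro, and the control cultures in a null gradient. Axonal RNA, labelled a pure axonal preparation, and soma RNA, labelled as total cell culture, were sequenced apart. There were 6 soma libraries of each condition, 6 of stretched axons and 5 of control axons. Since all 4 groups held the particles, the comparisons are of stretch and of compartment, and the particles themselves have no control. The labels do not say whether replicates came from separate cultures or animals, so the p-values measure only the spread between these libraries.

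Cells hold iron inside ferritin, a hollow shell built of a heavy subunit (Fth1), which oxidises iron, and a light subunit (Ftl1), which helps to mineralise it. Iron enters on transferrin through the transferrin receptor (Tfrc), is reduced in endosomes by ferrireductases such as Steap3, crosses the endosomal membrane through the transporter DMT1 (Slc11a2), leaves the cell through ferroportin (Slc40a1), and is set free from heme by heme oxygenase 1 (Hmox1) and from ferritin when the cargo receptor Ncoa4 carries ferritin to lysosomes. Iron regulatory proteins 1 and 2, encoded by Aco1 and Ireb2, bind a short RNA hairpin, the iron-responsive element, when iron is scarce: in a 5′ untranslated region this blocks translation, and in the 3′ untranslated region of Tfrc it protects the mRNA from decay. In neurons iron serves respiration and transmitter synthesis, and free iron promotes oxidation of lipids.

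The element acts differently in the 5′ and the 3′ untranslated region, so the matches found among the 10 genes are shown first. A match in sequence does not by itself show regulation. The untranslated regions of all coding transcripts of the members in the GENCODE annotation of mm10 were searched on the mRNA strand for the loop CAGTGN, with N any base other than G, between 5-base arms of which at least 4 of 5 positions paired (a G-T pair counted), with an unpaired C before the first arm. In each line below the 6 loop bases are in capitals, T stands for U, and overlap with other motifs was not considered.
Fth1: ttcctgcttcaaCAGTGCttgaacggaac
Ftl1: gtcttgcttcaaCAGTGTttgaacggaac
Slc40a1: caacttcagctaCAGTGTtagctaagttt
Tfrc site 1: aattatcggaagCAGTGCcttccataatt
Tfrc site 2: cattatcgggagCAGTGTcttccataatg
Tfrc site 3: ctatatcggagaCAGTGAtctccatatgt
Tfrc site 4: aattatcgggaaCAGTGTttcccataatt
Slc11a2: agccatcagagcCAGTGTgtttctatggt
The Fth1 match lies in the 5′ untranslated region on the plus strand at chr19:9982732-9982760, the Ftl1 match in the 5′ untranslated region on the minus strand at chr7:45459779-45459807, and the Slc40a1 match in the 5′ untranslated region on the minus strand at chr1:45925465-45925493. The 4 Tfrc matches lie in its 3′ untranslated region on the plus strand, at chr16:32631219-32631247, chr16:32631598-32631626, chr16:32631663-32631691 and chr16:32631710-32631738. The Slc11a2 match, in the 3′ untranslated region of 1 of its 6 coding transcripts on the minus strand at chr15:100395153-100395181, paired at 4 of 5 positions, and the others at all 5. No match was found in the untranslated regions of the other 5 members: Hmox1 (gene at chr8:75093621-75100589), Ireb2 (chr9:54863789-54912530), Aco1 (chr4:40143081-40198338), Ncoa4 (chr14:32159865-32179855) and Steap3 (chr1:120190757-120272705). Over 1 transcript for each of 21894 coding genes, 0.4385% had such a match with at least 4 pairs in the 5′ and 2.567% in the 3′ untranslated region, and 0.07765% and 0.3837% had one with 5 pairs.

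Library totals ran from 16369153 to 43048953 counts assigned to genes, and levels are given as CPM, counts scaled to a total of 1000000. Soma libraries detected 22452 to 24575 genes and axonal libraries 4263 to 10242, and the median gene at 1 to 10 CPM in somata had a count in 1 of the 11 axonal libraries. Neuron markers (8 genes, led by Tubb3, or by Gap43 in control axons) summed to 6973 to 8883 CPM in somata and 2892 to 5845 CPM in axons. Astrocyte markers (8 genes, led by Gfap) summed to 5120 to 14076 CPM in somata and 4651 to 25629 CPM in axons. The label gives a pure axonal preparation. Gfap alone had a median of 15093 CPM in control axons and 6069 CPM in control somata, where the median sums were 18261 and 8518 CPM. In stretched cultures the median sums were 8163 CPM in axons and 8506 CPM in somata. The median log2 fold change of the 8 markers, axons against somata, was -0.48 in control and -0.83 in stretched cultures, and none was called. For all tested genes it was -1.40 and -1.13. Such a median counts each marker alike, whatever its level. On counts simulated for these 2 comparisons 0% of 4-fold changes were recovered, so absence of a call does not show equal levels. Of 9 microglial markers, 6 had no count in any control axon library and P2ry12 had none in any axonal library. Their sum still reached 494 CPM in control axon replicate 2 and 223 and 438 CPM in stretched axon replicates 2 and 8. In the remaining axonal libraries it was at most 0.311 CPM, and in somata 41.1 to 109 CPM. Control soma replicate 4 stands apart over all genes as well as in the 10 members: it lay outside the range of the other 5 control soma libraries for 51.4% of tested genes and within the range of the stretched soma libraries for 74.2%, where the other 5 controls were at 26.7% to 33.9% and 35.0% to 42.5%. Of the 10 members, 10 lay outside the first range in that library and 9 within the second; both held together for 9 members and for 38.2% of all genes. Many soma results are therefore given with and without it. It was singled out by these same values, so results without it are no separate support for a difference between the groups.

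**Figure D1:**
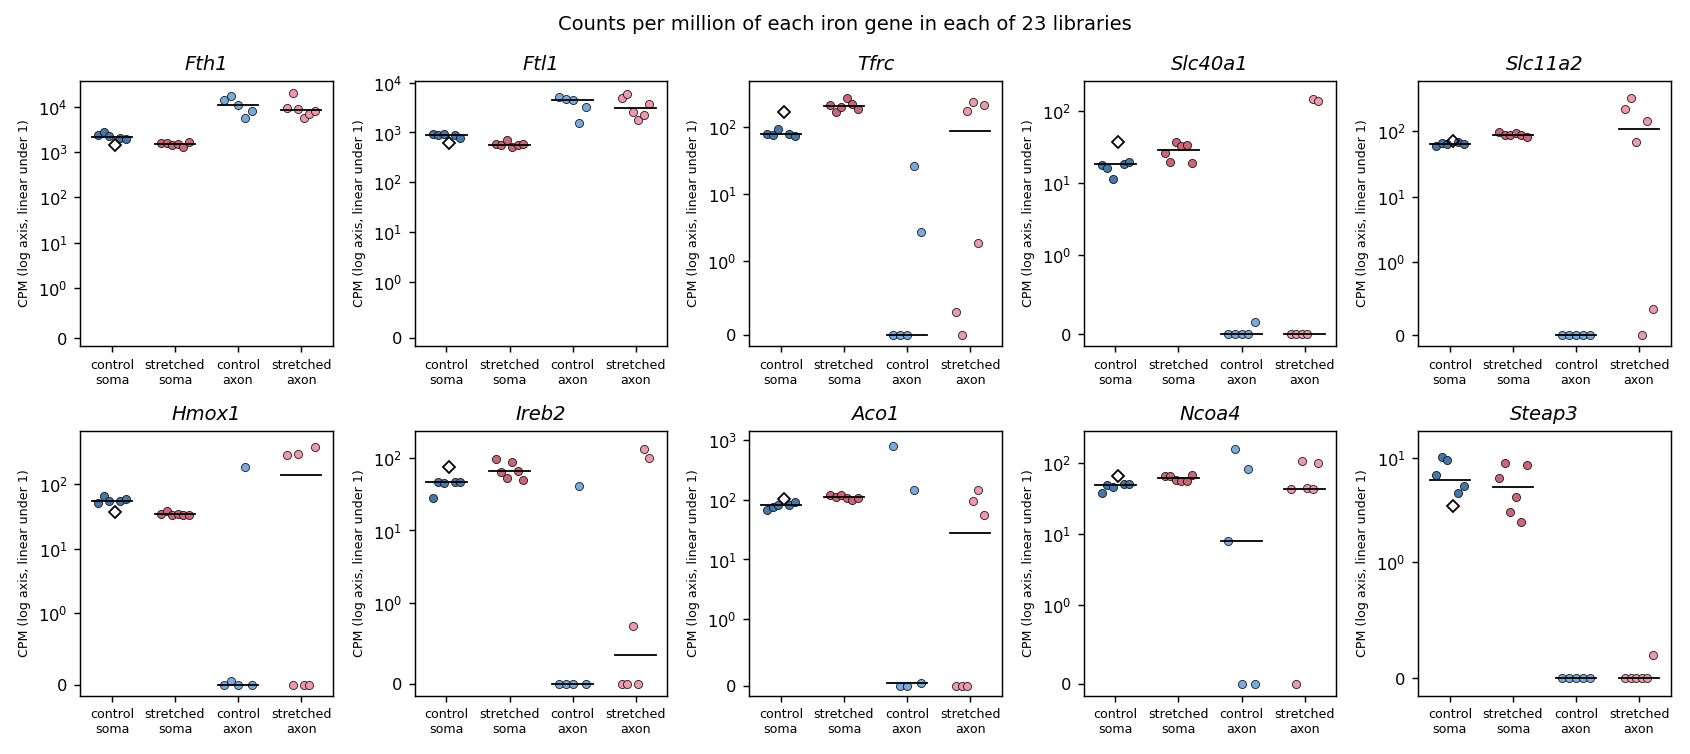
CPM of the 10 iron genes in each of the 23 libraries, on a log axis that is linear under 1 CPM, with each point a library, black lines the group medians and the open diamond control soma replicate 4. Fth1 and Ftl1 sit higher in all 11 axonal libraries than in any soma library, while Slc11a2 has no count in the 5 control axon libraries and Steap3 has a count in 1 of 11 axonal libraries.

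Per kilobase of transcript, which allows levels to be compared between genes, the ferritin subunits stood far above the other members in every group. In control somata the mean level of Fth1 was 2295 ± 490 CPM per kb and that of Ftl1 859 ± 129 (SD, n = 6). Hmox1 followed at 34.3 ± 6.2, then Aco1 at 21.9 ± 3.3, Slc11a2 at 21.3 ± 1.4 and Tfrc at 19.5 ± 7.6 CPM per kb, and the ranges of these last 3 overlapped. Ncoa4 at 12.3 ± 2.2, Ireb2 at 8.33 ± 2.7, Slc40a1 at 6.02 ± 2.6 and Steap3 at 1.29 ± 0.52 CPM per kb closed the order. In stretched somata Tfrc stood next after ferritin with 42.8 ± 7.3 CPM per kb, and Hmox1 with 22.0 ± 1.2 came behind Slc11a2 with 29.1 ± 1.6 and Aco1 with 28.8 ± 2.0.

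In somata, stretch went with less mRNA for the ferritin subunits and heme oxygenase 1 and with more for the transferrin receptor, DMT1 and iron regulatory protein 1. By edgeR's quasi-likelihood test with Benjamini-Hochberg adjustment over 15632 genes, 6 of the 10 members passed an adjusted p of 0.05, 3 higher and 3 lower, where 25.1% of all tested genes passed. The median log2 fold change of the 10 was 0.30 and that of all tested genes -0.03. Without control soma replicate 4, 9 of the 10 passed, 6 higher and 3 lower, against 38.3% of all genes (18.2% higher and 20.1% lower). In bulk RNA, fewer cells of a type and less RNA per cell cannot be told apart.

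Of the storage genes, Fth1 read 1422, 2154 and 2736 CPM (lowest, median and highest) in control somata and 1278, 1543 and 1702 CPM in stretched somata. The lowest control value is replicate 4, and the other 5 controls, at 1914 CPM or more, lay above every stretched library. Fth1 fell by 0.54 on the log2 scale (SE 0.13, adjusted p = 0.0104), and by 0.65 without that library (SE 0.092, adjusted p = 0.00012). Ftl1 read 605, 886 and 928 CPM in control and 500, 574 and 700 CPM in stretched somata, and again only replicate 4 of the controls fell among the stretched values. Ftl1 fell by 0.56 (SE 0.11, adjusted p = 0.0053), or 0.65 without replicate 4. Together the ferritin mRNAs made up 0.296% ± 0.057 of counts in control and 0.210% ± 0.015 in stretched somata (SD, n = 6 each). Ferritin has processed pseudogenes, whose reads cannot always be assigned to 1 place; 5 that are annotated had means of 3.76 CPM or less in the other 5 control soma libraries, and reads that matched several places were not counted.

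Of the uptake genes, Tfrc changed most among the 10 in size. It read 74.2, 79.3 and 170 CPM in control somata and 167, 206 and 271 CPM in stretched somata. The 5 controls other than replicate 4 lay between 74.2 and 91.8 CPM, below all 6 stretched libraries, while replicate 4 at 170 CPM lay above the lowest of these. Tfrc rose by 1.10 on the log2 scale (SE 0.19, adjusted p = 0.0043), which is 2.14-fold, and by 1.33 without replicate 4 (SE 0.11, adjusted p = 7.8e-06). Slc11a2, the endosomal iron transporter, read 59.0, 63.8 and 71.4 CPM in control and 82.0, 86.9 and 95.7 CPM in stretched somata. It was the 1 member whose groups did not overlap with all 12 libraries, as for 4.11% of tested genes. Without control soma replicate 4 this held for 8 members, against 23.5%. That library was singled out by lying among the stretched values, so leaving it out favours groups that lie apart. Slc11a2 rose by 0.41 (SE 0.076, adjusted p = 0.0045). Steap3, the endosomal ferrireductase, was the least abundant member, with 3.46 to 10.1 CPM in control and 2.45 to 8.85 CPM in stretched somata, ranges that overlap. Its log2 fold change of -0.30 (SE 0.34) had an adjusted p of 0.54.

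Slc40a1, the exporter, read 11.5, 18.3 and 37.5 CPM in control and 19.0, 29.2 and 37.7 CPM in stretched somata, the highest control being replicate 4. Its log2 fold change was 0.44 (SE 0.25, adjusted p = 0.22), and without replicate 4 it was 0.69 (SE 0.20, adjusted p = 0.015).

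Hmox1, which opens the heme ring and releases its iron, read 36.6, 55.1 and 65.3 CPM in control somata and 32.9, 34.0 and 38.1 CPM in stretched somata. The stretched libraries lay close together, and the 5 controls other than replicate 4 began at 51.8 CPM. Hmox1 fell by 0.69 on the log2 scale (SE 0.12, adjusted p = 0.0041), and by 0.79 without replicate 4. Microglial markers (9 genes), a cell type that expresses Hmox1, summed to 56.0 to 109 CPM in control and 41.1 to 53.9 CPM in stretched somata, with C1qa and C1qb lower among the 8 tested. Neuron markers summed to 7231 to 8883 CPM in control and 6973 to 7609 CPM in stretched somata, and of the 8 tested 4 were lower (Tubb3, Stmn2, Gap43 and Rbfox3) and 1 higher (Syt1), or 1 lower and 0 higher with offsets for transcript length and GC content. Leaving out 1 soma library at a time gave 1 to 4 lower, the lowest without stretched soma replicate 4. Of 8 astrocyte markers none was called. The part of these markers in the change of the iron genes was not tested.

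Among the regulators, Aco1 read 68.3, 81.3 and 104 CPM in control and 98.9, 110 and 119 CPM in stretched somata. It rose by 0.36 (SE 0.098, adjusted p = 0.017), and its groups overlapped through replicate 4 alone. Ireb2 read 27.9, 46.3 and 76.0 CPM in control and 49.8, 65.0 and 96.4 CPM in stretched somata, and its log2 fold change of 0.49 (SE 0.21) had an adjusted p of 0.099. Ncoa4, the receptor that delivers ferritin to lysosomes, read 38.3, 49.4 and 65.7 CPM in control and 55.3, 61.3 and 68.0 CPM in stretched somata, and its log2 fold change of 0.25 (SE 0.11) had an adjusted p of 0.11. Without replicate 4 both passed, Ireb2 with 0.65 (adjusted p = 0.015) and Ncoa4 with 0.32 (adjusted p = 0.011).

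**Figure D2:**
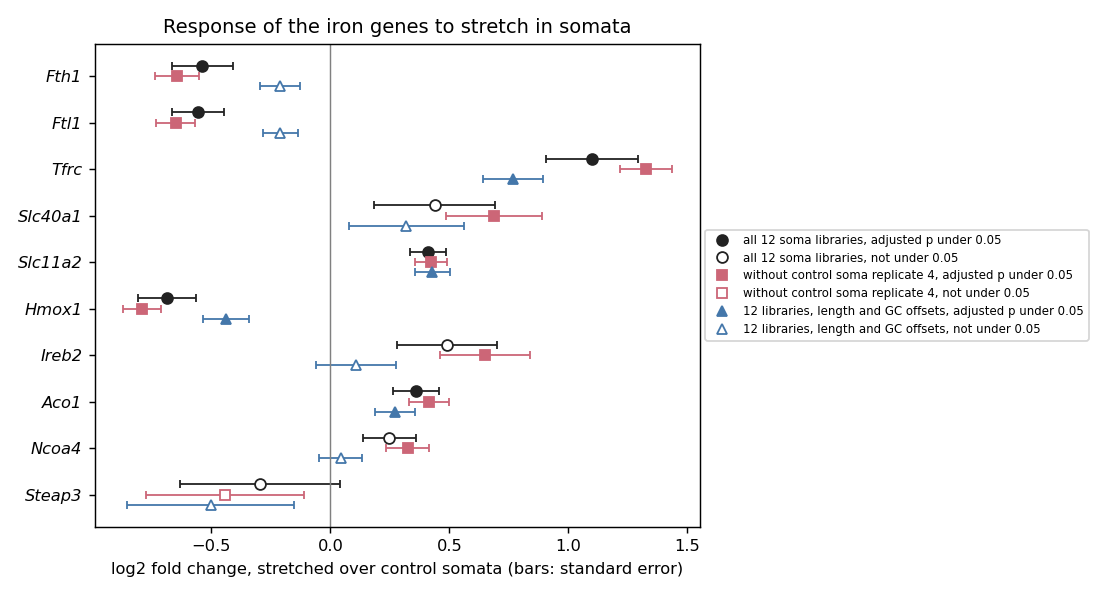
Log2 fold change of each iron gene, stretched over control somata, with bars of 1 standard error, from all 12 soma libraries (black), without control soma replicate 4 (red) and with offsets for transcript length and GC content (blue); filled symbols have an adjusted p under 0.05. Fth1 and Ftl1 lie below 0 and Tfrc above 0 in all 3 fits, and under the offsets Fth1 and Ftl1 move to -0.21 and are no longer filled.

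The change in somata went with the length of the transcript over classes of genes, while single members differed from the median of their class. The median log2 fold change of all tested genes ran from -0.38 in the shortest of 10 equal classes of length, up to 1111 bases, where 32.2% of genes were called lower, to 0.26 in class 9. Fth1 (929 bases) and Ftl1 (968 bases) are in the shortest class and Hmox1 (1569 bases) in the next, while Tfrc (4890 bases) is in class 9, where 26.0% were called higher. Steap3 (5158 bases) is also in class 9 and was at -0.30, on the other side of 0 from the median of its class. With an SE of 0.34 and an edgeR adjusted p of 0.54, its sign is not settled. With offsets for length and GC content in each library, 4 members passed, against 13.8% of all genes. Tfrc was at 0.77 (adjusted p = 0.0068), Slc11a2 at 0.43 (adjusted p = 0.0068), Aco1 at 0.27 (adjusted p = 0.044) and Hmox1 at -0.44 (adjusted p = 0.013). Fth1 and Ftl1 were at -0.21 each, with adjusted p of 0.098 and 0.067, and Ireb2 was at 0.11. When control soma replicate 4 was also left out, Fth1 at -0.28 (adjusted p = 0.0085) and Ftl1 at -0.26 (adjusted p = 0.015) passed, and 6 members did, against 24.8% of all genes.

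**Figure D3:**
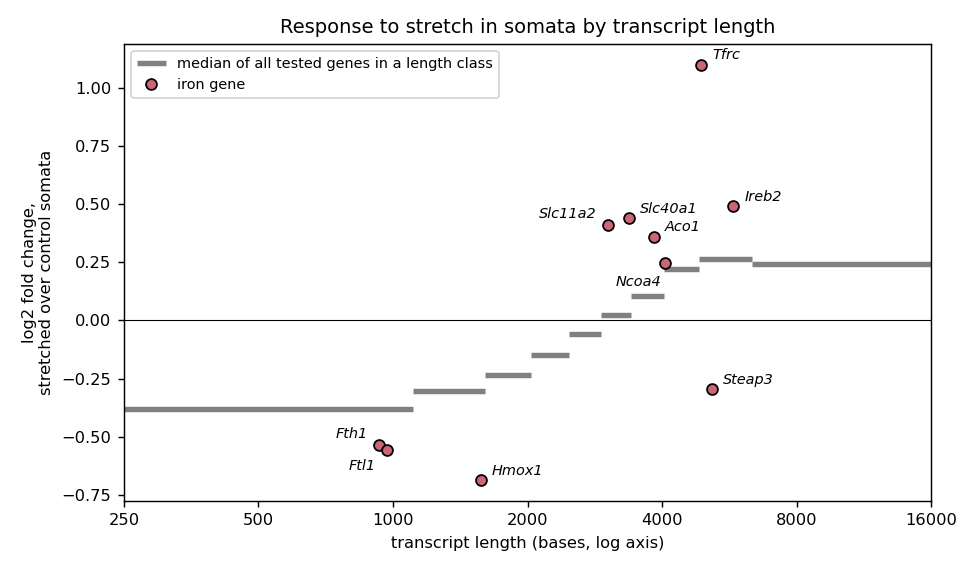
Log2 fold change, stretched over control somata, against transcript length in bases on a log axis, with the iron genes as points and the median of all tested genes in each of 10 length classes as grey bars. The grey bars climb from -0.38 to 0.26, and Tfrc at 1.10 lies above and Hmox1 at -0.69 below the bar of their own length.

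Soma libraries also fell into 2 sets by the Y-linked gene Eif2s3y, at 5.39 to 13.2 and 24.7 to 28.7 CPM, each with 3 control and 3 stretched libraries. Within the high set 7 members passed, against 29.2% of all genes, with Tfrc at 1.18, Fth1 at -0.62, Ftl1 at -0.66 and Hmox1 at -0.69. Within the low set, which holds control soma replicate 4, edgeR called no member and no gene (0%, with 2739 genes at an unadjusted p under 0.05), with Tfrc at 1.07, Fth1 at -0.36, Ftl1 at -0.39 and Hmox1 at -0.62.

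Genes of neighbouring steps were counted by list in the same soma comparison, where 11.2% of all tested genes were called higher and 13.9% lower, with a median log2 fold change of -0.03. Of 15 tested genes of iron uptake and transfer inside the cell, 2 rose and 1 fell, with a list median of -0.25: Lrp1, an endocytic receptor that takes up heme-hemopexin, went from 86.9 ± 20.6 to 121 ± 8.3 CPM (log2 fold change 0.44), and Pcbp1, a chaperone that delivers iron to ferritin, from 97.0 ± 17.3 to 69.8 ± 2.0 CPM (-0.52; SD, n = 6 each). Of 11 genes of iron export and its regulation, Neo1, a hemojuvelin receptor with other roles in axon guidance, rose from 46.5 ± 12.5 to 69.2 ± 9.5 CPM. The other 10 did not pass, and the list median was 0.14. Hamp, which encodes the export inhibitor hepcidin, had no count in any soma library.

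Of 13 genes of heme synthesis and breakdown, 1 rose and 4 fell, and the list median was -0.25. Alas1, the enzyme of the first step of heme synthesis, rose from 76.9 ± 13.2 to 105 ± 3.9 CPM, while Urod, a later enzyme of that pathway, fell from 49.3 ± 7.0 to 34.1 ± 3.1 CPM and Hmox2, the constitutive heme oxygenase, from 92.2 ± 14.6 to 64.0 ± 3.4 CPM. Of 17 genes of iron-sulfur cluster assembly, 4 fell, 3 of which are named here, and none rose, with a list median of -0.05. Glrx5, a cluster carrier, fell by 1.53 on the log2 scale (SE 0.49) with a wide spread of 51.5 ± 38.2 CPM in controls, and Bola3 (-0.49) and Nfu1 (-0.31), which help to hand on clusters, fell by less. Of 12 targets of the transcription factor NRF2 outside iron handling, 1 rose and 3 fell, with a list median of -0.19: Slc7a11, the cystine importer, was at 0.52, Gclm, a subunit of the enzyme of glutathione synthesis, at -1.02, Prdx1 at -0.34 and Txn1 at -0.31, the last 2 being thiol antioxidants. Without control soma replicate 4 the heme list had 1 higher and 7 lower, the cluster list 1 and 7, and the uptake list 2 and 5. The export list had 3 and 0 and the NRF2 list 1 and 4, where 18.2% of all genes were higher and 20.1% lower. With the length and GC offsets the heme, cluster and uptake lists had 1 and 3, 1 and 1, and 1 and 0. The export list then had 0 higher and 1 lower (Abcg2, a transporter that can export heme, at -0.64) and the NRF2 list 0 and 2. Of all genes 13.8% were called in either direction with these offsets. Of the genes named, Pcbp1, Neo1, Glrx5, Nfu1, Slc7a11 and Txn1 did not pass with the offsets, Neo1 being at 0.32 (adjusted p = 0.078) and Slc7a11 at 0.19 (adjusted p = 0.44). In 9 of the 12 fits that each left out 1 soma library no gene of the NRF2 list was called higher. Between compartments, Prdx1 of the NRF2 list was also higher in axons, by 1.14 in control and 1.32 in stretched cultures. In stretched cultures Txnrd1 and Txn1 were also higher, and in each setting 1 gene of that list was lower. No gene of the uptake, export, heme or cluster lists was called higher in axons, as 0.856% (control) and 0.843% (stretched) of all genes were. Called lower were 4, 6, 3 and 2 genes of these lists in control and 4, 4, 2 and 0 in stretched cultures. Of all genes 34.4% and 28.4% were called lower.

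In axons, ferritin mRNA made up a larger part of the library than in somata. Fth1 read 14396, 16984, 11028, 5682 and 8122 CPM in control axon replicates 1, 2, 3, 5 and 7, and 5518, 8335 and 20489 CPM (lowest, median and highest) in stretched axons. All 11 axonal libraries lay above the highest soma library, at 2736 CPM. In control cultures Fth1 was higher in axons by 2.10 on the log2 scale (4.28-fold, SE 0.23, adjusted p = 1.9e-05) and in stretched cultures by 2.18 (SE 0.26, adjusted p = 1.7e-05). Ftl1 read 5119, 4709, 4552, 1565 and 3184 CPM in the control axon replicates in the same order, and 1774, 3144 and 5956 CPM in stretched axons, all above the 928 CPM of the highest soma library. Ftl1 was higher in axons by 1.91 (SE 0.24, adjusted p = 4.1e-05) and 2.08 (SE 0.26, adjusted p = 2.3e-05). The ferritin mRNAs took 1.51% ± 0.59 of counts in control axons (SD, n = 5) and 1.34% ± 0.68 in stretched axons (SD, n = 6). Per kilobase Fth1 ranked 1 to 3 among protein-coding genes in every axonal library and 7 to 13 in somata.

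Calls of higher levels in axons were rare. Of 14728 genes tested in control cultures 35.3% were called, 0.856% higher and 34.4% lower, and of 14466 in stretched cultures 29.3%, with 0.843% higher and 28.4% lower. Fth1 and Ftl1 were the 2 members called higher in both settings. Those called lower numbered 3 in control cultures and 1 in stretched ones. Groups lay apart with axons higher, as for both ferritin genes, in 0.978% and 1.35% of genes. Among genes of at least 500 CPM in control somata, 7.46% of 268 were called higher, with a median log2 fold change of -0.57, and Fth1 and Ftl1 ranked 2 and 3 from the top. In stretched cultures 3.27% of 275 such genes were called higher, and they ranked 1 and 2. Short transcripts were called higher more often: of genes of at least 100 CPM in control somata, 15.3% of the 229 in the shortest class were, against 3.07% of all 2349. Of short genes at 500 CPM or more, like both ferritin genes, 33.3% of 18 were called higher in control and 30.8% of 13 in stretched cultures. The median log2 fold changes of these short genes were 0.04 and 0.60, and Fth1 and Ftl1 ranked 1 and 2 among them in both. Scaling by total counts in place of TMM moved the median of all genes from -1.40 to -1.27 in control and from -1.13 to -0.73 in stretched cultures, and left both ferritin genes higher. Astrocyte markers, led by Gfap, summed to 25629, 22348, 18261, 4651 and 7664 CPM in control axon replicates 1, 2, 3, 5 and 7. Fth1 and the sum of these markers were thus both lowest in replicate 5. The stretched axon library highest in Fth1, replicate 2, had 6900 CPM of them. The part of these markers in the ferritin level was not tested.

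**Figure D4:**
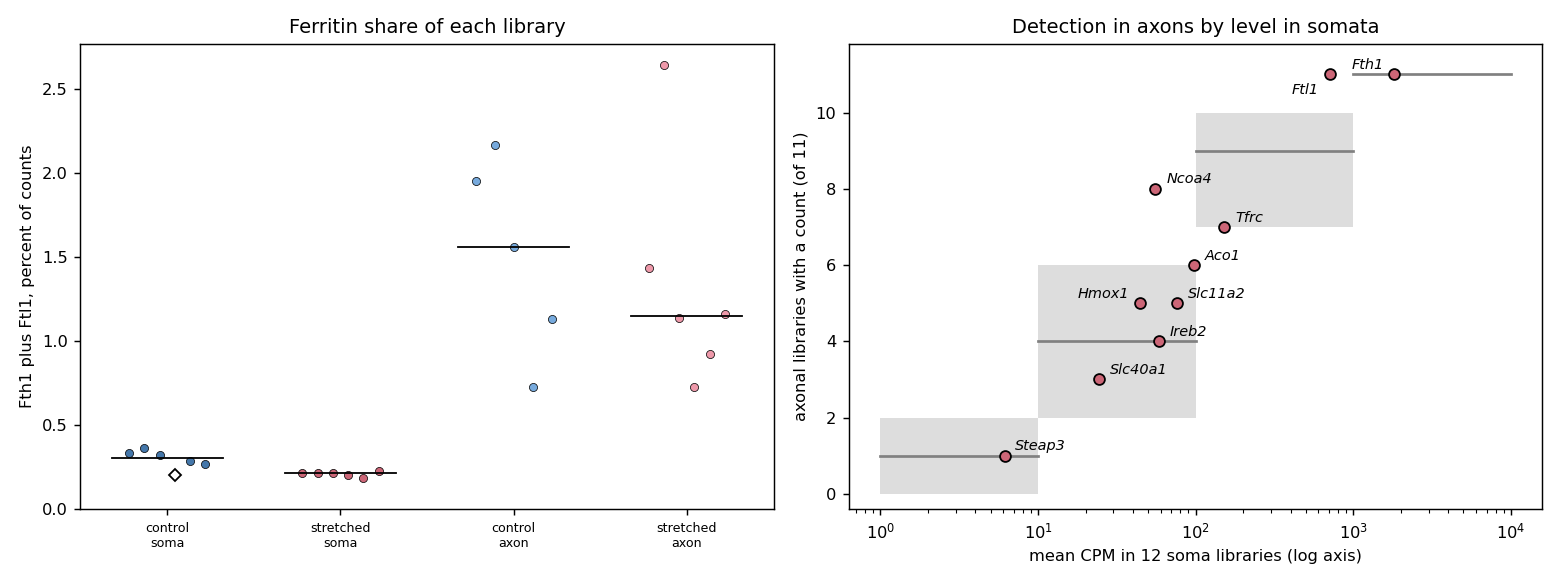
Left, the percent of counts taken by Fth1 and Ftl1 together in each library, with black lines the medians and the open diamond control soma replicate 4. Right, the number of axonal libraries (of 11) with a count for each iron gene against its mean soma CPM on a log axis, with grey lines and boxes the median and quartiles of all genes in that class of soma level. The ferritin share lies between 0.725% and 2.64% in axonal and between 0.183% and 0.363% in soma libraries, and Steap3, Slc40a1, Ireb2, Slc11a2, Hmox1, Aco1 and Tfrc lie inside the box of their class.

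The other 8 members came and went between axonal libraries. Ncoa4 had a count in 8 of 11, Tfrc in 7, Aco1 in 6, Slc11a2 and Hmox1 in 5, Ireb2 in 4, Slc40a1 in 3 and Steap3 in 1. Of all genes at 10 to 100 CPM in somata, the median gene had a count in 4 axonal libraries, and at 100 to 1000 CPM in 9. Where they were present their levels were often high: Aco1 read 789 CPM in control axon replicate 1 and 144 CPM in replicate 5, and 1 count or none in the other 3 control axon libraries. Hmox1 read 181 CPM in control axon replicate 5 and 280, 290 and 373 CPM in stretched axon replicates 1, 4 and 8, and at most 1 count in the other 7. Ncoa4 was the most widely found of the 8, at 7.96, 159, 0, 81.7 and 0 CPM in control axon replicates 1, 2, 3, 5 and 7 and at 0, 43.9 and 106 CPM (lowest, median and highest) in stretched axons. Ireb2 read 40.8 CPM in control axon replicate 5 and 0.71, 132 and 101 CPM in stretched axon replicates 4, 6 and 8, and had no count in the other 7.

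Slc11a2 and Steap3 had no count in any of the 5 control axon libraries, in which a floor of 3 counts is at most 0.167 CPM per library; such floors cover counting error only. Against this floor Slc11a2 was at least 387-fold lower than its mean of 64.5 CPM in control somata, and Steap3 at least 39.9-fold lower than 6.66 CPM (edgeR adjusted p = 4.3e-05 and 1.1e-05). Slc40a1 had 4 counts in replicate 7 and none in the other 4 control axon libraries, and was also called lower there (adjusted p = 0.00067). In stretched cultures Steap3, with 4 counts in replicate 8, was the 1 member called lower (adjusted p = 0.0010). Control axon replicate 5 held counts for 7 members. Without it 8 members were called in control cultures, the added 3 being Tfrc, Hmox1 and Ireb2, all lower. Calls rose over all genes too, to 8151, or 53.6% of 15205 tested, from 35.3% with all libraries.

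For stretch in axons 5 members passed the filter on low counts (Fth1, Ftl1, Tfrc, Aco1 and Ncoa4), and edgeR called none, as it called 0% of 4947 genes, with 46 at an unadjusted p under 0.05. Fth1 was at -0.20 (SE 0.27) and Ftl1 at -0.13 (SE 0.29), neither beyond its standard error. Tfrc read 0, 0, 0, 25.9 and 2.68 CPM in control axon replicates 1, 2, 3, 5 and 7, and 0.31, 0, 172, 240, 1.82 and 214 CPM in stretched axon replicates 1, 2, 4, 5, 6 and 8. The groups overlap, with 3 stretched libraries far above the rest. Slc11a2 had no count in any of 5 control axon libraries, and stretched axon replicates 1, 2, 4, 5, 6 and 8 read 215, 320, 68.6, 0, 142 and 0.35 CPM. Its mean in stretched axons, carried by replicates 1, 2, 4 and 6, was at least 744-fold above the floor of 3 counts per library in control axons. That floor covers counting error only, not the absence of a gene from single libraries. Detection in 5 of 11 axonal libraries was usual for its soma level (median 4, quartiles 2 to 6). How many of all genes were split in this way was not counted. The filter removed Slc11a2 from the edgeR test, and without the filter its adjusted p was 0.13. DESeq2 called it (adjusted p = 9.4e-07) and Slc40a1 (adjusted p = 0.0040), which read 147 and 140 CPM in stretched axon replicates 6 and 8 and 0 in the other 4, among 5.23% of 16409 genes.

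The difference of the stretch effect between axons and somata could be tested for the same 5 members, and none passed, against 0.041% of 4882 genes. For Fth1 it was 0.34 on the log2 scale (SE 0.30), for Ftl1 0.43 (SE 0.31) and for Tfrc 2.91 (SE 3.04). In 1 edgeR fit over all 4 groups, 2 members passed, Slc11a2 (adjusted p = 0.011) and Slc40a1 (adjusted p = 0.023), against 21.8% of 16113 genes.

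The make-up of ferritin mRNA passed the test in none of the 4 comparisons. Fth1 gave 71.7% ± 2.0 of the ferritin counts in control somata and 72.2% ± 3.1 in stretched somata (SD, n = 6 each), 74.6% ± 3.6 in control axons (n = 5) and 73.4% ± 5.0 in stretched axons (n = 6). The 4 comparisons gave differences of -1.19 to 2.92 percentage points with two-sided exact permutation p from 0.13 to 0.74. Ireb2 gave 35.8% ± 4.4 of the counts of the iron regulatory proteins in control somata and 38.1% ± 6.2 in stretched somata (exact permutation p = 0.46, n = 6 each). In control axons the share was 0, 0 and 22.1% in replicates 1, 7 and 5, the 3 libraries with a count of either gene, and the 0 of replicate 7 rests on 1 count of Aco1. The mean was lower by 28.4 percentage points than in somata (exact permutation p = 0.012, the smallest this design allows, and 0.095 after Benjamini-Hochberg adjustment over 8 tests). In stretched axons the share was 100, 0, 47.9 and 64.3% in replicates 4, 5, 6 and 8, the 100% resting on 17 counts. Its mean of 53.1% was higher by 14.98 percentage points than in stretched somata (exact permutation p = 0.43, n = 4 and 6) and by 45.7 than in control axons (exact permutation p = 0.17, n = 4 and 3).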

How the data were processed

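The deposited files hold raw read counts per Ensembl gene for 23 libraries. Per the submitters' processing notes, the authors used FastQC 0.11.9, MultiQC 1.12, fastp 0.20.1, STAR 2.7.08a and HTSeq 0.13.5 with mm10; the annotation, the strand setting and whether UMIs were used in counting are not given in the sources used here. Rows that name no gene took 14.2% to 24.4% of counts per library and were left out. Identifiers were matched to symbols, transcript lengths and untranslated regions of GENCODE (GRCm38), 55141 of 55487 with a symbol. The members and lists were chosen with earlier results of these data known.

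CPM is counts scaled to a library total of 1000000 gene counts, and per-kilobase levels divide by the length of 1 principal transcript per gene. Each comparison was fitted on its own libraries with edgeR 4.0.16 (R 4.3.3; filterByExpr, TMM, robust quasi-likelihood), adjusted over all tested genes (threshold 0.05). The difference of stretch effects was that between 2 separate fits, with a normal test. Shares within a library were compared by exact permutation. Of the neighbouring lists, up to 4 genes per list are named, those past the threshold in somata with the largest change and a mean of at least 10 CPM. On counts simulated for the soma stretch comparison over 15632 genes, 72.4% of 2-fold and 100% of 4-fold changes were recovered; for stretch in axons over 4947 genes, and for axon against soma over 14728 (control) and 14466 (stretched) genes, 0% of either were. Alternatives were DESeq2 1.42.0, its size factors, no filter, a replicate block, length and GC offsets (mgcv 1.9.3), sets by Eif2s3y and leaving out libraries; those with total counts only, and 2 that left out soma libraries numbered 4, were chosen after seeing the data. No 2 libraries were identical. One gene of the iron-sulfur cluster list is counted with its list, and its own values are not reported here.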

Additional observations from a re-analysis of the deposited data

Results flagged for a closer look

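In all, 47 sets of values were examined (a gene or share in 1 group). Of these, 10 held a library whose gap to its nearest neighbour was large for the range of the group. The cut-off flags about 1 in 20 sets of normally spread values. A set with a count in 1 library only is always flagged, so that rate cannot be set against the 10. Among the 10, 2 soma values were control soma replicate 4. Tfrc was at 170 CPM, the other 5 controls being at 74.2 to 91.8, and Slc40a1 at 37.5 CPM, the others being at 11.5 to 19.8. In stretched somata Hmox1 read 38.1 CPM in replicate 2 and 32.9 to 34.8 CPM in the others.

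The other 7 were in axons. Fth1 read 20489 CPM in stretched axon replicate 2, and 5518 to 9491 CPM in the others. Control axon replicate 5 stood highest in Tfrc (25.9 CPM, the others up to 2.68), Hmox1 (181 CPM, the others up to 0.0499) and Ireb2 (40.8 CPM, the others with no count). Aco1 read 789 CPM in control axon replicate 1 and at most 144 CPM in the others. Slc40a1 in control axon replicate 7 (0.155 CPM) and Steap3 in stretched axon replicate 8 (0.202 CPM) stood out against groups with no other count, and each rests on 4 counts.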

How the results depend on the processing

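Fth1, Ftl1, Tfrc, Slc11a2, Hmox1 and Aco1 kept their direction in somata under every alternative run, with the exceptions in calls given here. In somata, leaving out 1 library at a time gave 6 to 9 members and 2666 to 6072 genes called, the highest of both without control soma replicate 4. Over these omissions the adjusted p ran from 0.00012 to 0.027 for Fth1, 0.015 to 0.36 for Slc40a1, 0.015 to 0.21 for Ireb2 and 0.011 to 0.21 for Ncoa4. Length and GC offsets gave 4 members and 2153 genes, with Fth1 and Ftl1 missing the threshold. Offsets with the replicate block gave 3 members and 1817 genes, with Aco1 missing it as well. Within the low Eif2s3y set 0 members and 0 genes were called. Scaling by total counts turned the balance of called genes from 44.7% to 53.4% higher. Ncoa4 turned to -0.0020 with offsets and block and to -0.0060 within the low set.

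Whether replicate numbers pair libraries is not given in the labels and was not settled by the data. Same-numbered soma libraries had a mean correlation of deviations of 0.23 (lowest 0.0028, 4 of 5 over 0.1, 2 of 5 best with their own number) and different-numbered ones -0.036, and all 5 shared numbers had both libraries in the same Eif2s3y set. In axons the same-numbered mean was 0.026. With a replicate block in somata 3209 genes and 6 members were called. The block turned Ncoa4 in axons to -1.51, Aco1 between control compartments to -5.24, Slc40a1 and Hmox1 between stretched compartments to -10.3 and -4.31, and the stretched compartments gave 7687 genes. For shares the block gave -0.064 points for Fth1 under stretch in somata and -21.8 points for Ireb2 between control compartments, where p was then 0.5, and the log2 ratio gave -0.93 for Ireb2 between stretched compartments.

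In axons DESeq2 called 2 members and 859 genes. Between compartments DESeq2 called 10206 genes in control and 10064 in stretched cultures, and no filter 10714 and 10931. Slc11a2 between stretched compartments was not called and changed sign, at 0.097 with DESeq2, 0.14 with its size factors and 0.50 with total counts. For the difference of effects, no filter and the block gave 0 genes each, and 1 fit over all groups 2 members and 3509 genes; the cause was not tested.

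Leaving out 1 library at a time, the difference of effects had 1 to 8 genes, control compartments 5 to 8 members and 4542 to 8151 genes (highest without control axon replicate 5), and stretched compartments 4174 to 6499 genes (highest without stretched axon replicate 8). Uncalled values crossed 0 in these ranges: in axons Ftl1 -0.31 to 0.014, Aco1 -2.14 to 0.29 and Ncoa4 -0.13 to 1.13; in control compartments Aco1 -1.26 to 1.15 and Ncoa4 -1.22 to 0.025; in stretched compartments Slc40a1 -0.29 to 0.74 and Slc11a2 -0.50 to 0.28; in the difference of effects Ncoa4 -0.38 to 0.88. The Fth1 share ranged from -2.15 to 0.26 points for stretch in axons and -0.13 to 1.51 in somata, and the Ireb2 share from -0.67 to 32.7 between stretched compartments. With the wide dispersion of axonal genes as a whole, changes of 4-fold were not recovered in simulated counts. Absence of a call for stretch in axons sets no limit for Tfrc, Aco1 and Ncoa4, with SE of 2.38 to 3.04 on the log2 scale. Fth1 and Ftl1 varied less, with SE of 0.27 and 0.29, and the simulation does not stand for genes of their spread.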
